A study of Drosophila melanogaster with 4 samples.

Results

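Chromosome arm 3R, the right arm of the third chromosome of Drosophila melanogaster, carried 229 of the 1524 places at which the authors called a ChIP peak for GFP-tagged Hr78. The 229 peaks are all rows of the deposited list that lie on 3R, so they were chosen by position alone, and the 10 peaks of the separate scaffold 3RHet are not among them. Chromatin came from embryos 8 to 16 h old of the strain Hr78-GFP, genotype PBac{y[+]-attP-3B}VK00037, with a transgene of the Hr78 genomic coding region, and all 4 libraries share this material. The series has 2 libraries of DNA precipitated with a rabbit antibody against GFP (ab290) and 2 of input DNA. The protocol in the labels speaks of y; bw cn sp flies, and the labels do not say whether the native Hr78 gene was intact in the line, whether libraries of a group came from separate collections, or which cells of the embryo express the tagged protein.

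Hr78 is an orphan nuclear receptor, a transcription factor that contacts DNA through a zinc finger domain and for which no natural ligand is established. Receptors of this family recognise short motifs related to AGGTCA, often as repeats. In flies Hr78 is known for its need in ecdysteroid signalling at the onset of metamorphosis. A ChIP peak is a stretch where more precipitated fragments pile up than a background predicts, and it marks where the tagged protein, or something crosslinked to it, sat on chromatin in at least part of the cells. All positions are 1-based on release 5 of the fly genome. No annotation or sequence of that release was used here, so peaks carry positions and no gene names.

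Each peak has a start, an end and a score. The score is the authors' own value for the peak. The file does not name its scale, and a larger score ranks a peak higher within the list. A single list serves all libraries, which leaves every peak without a replicate error, and the depth is unknown. Intervals are 95% and cover counting error only. The tests below are exact tests across peaks of 1 list, adjusted together over 9 tests by the Benjamini-Hochberg method, and peaks that lie in groups are not independent of each other.

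The 3 highest scores of 3R were over 180 and belonged to peaks with no neighbour within 5 kb. The highest score, 193.77, belonged to the peak at 15686906 to 15687484, which is 579 bp wide. Its nearest neighbour begins 43124 bp away, towards the telomere, and scores 12.65. The second, at 8889459 to 8890430, is 972 bp wide with a score of 188.12. The third, at 8537921 to 8538736, is 816 bp wide and scores 183.58, with 3 peaks between it and the second. These 3 were ranks 6, 7 and 8 among the 1048 peaks of the 5 large arms X, 2L, 2R, 3L and 3R. In the whole list of 1524 peaks they were ranks 17, 18 and 19.

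The next 6 peaks of 3R held ranks 11 to 16 of the large arms without interruption by another arm, and ranks 26 to 30 and 32 of the whole list. They were the peaks at 1416963 to 1417563 (score 154.54), 2733757 to 2734296 (153.87), 57948 to 58917 (150.55), 17405655 to 17406220 (149.82), 11798482 to 11799055 (148.08) and 11925116 to 11925974 (137.61). Between the last pair of these lies a single weak peak, at 11851631 to 11851831 with a score of 9.97. The tenth peak of 3R, at 17234084 to 17234574, scored 114.80 and was rank 27 of the large arms and 48 of the whole list. It stands 171080 bp from the peak at 17405655, which is the next on the arm. Lower scores that were still over 100 belonged to 5 more peaks, at 159622 to 160192 (110.26), 18222875 to 18223460 (109.54), 2645948 to 2646544 (104.29), 10549827 to 10550362 (102.08) and 27045341 to 27045950 (101.35). The 15 peaks with scores over 100 are 491 to 972 bp wide.

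**Figure D1:**
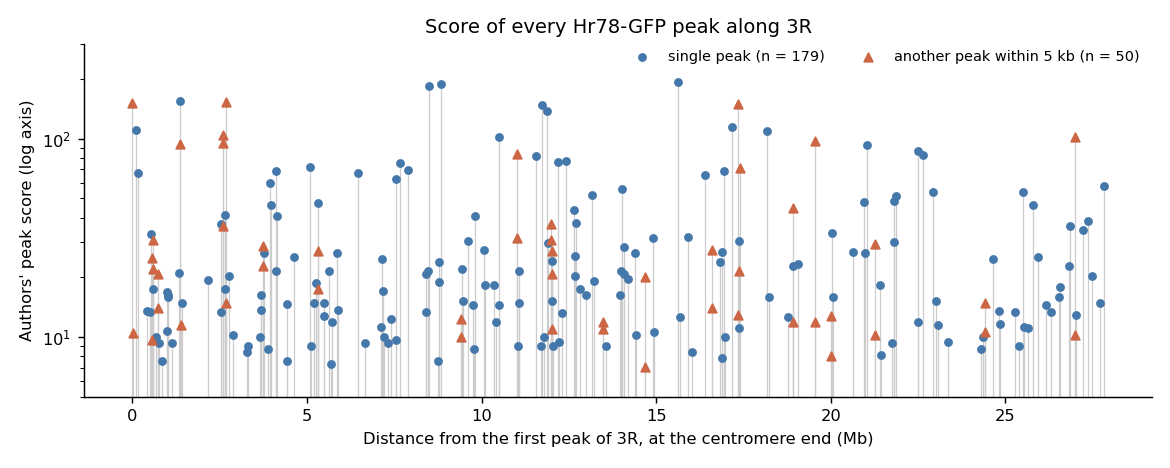
Each point is 1 of the 229 peaks of 3R, placed by its distance in Mb from the first peak at the centromere end (horizontal axis) and by its score on a log axis (vertical axis). Triangles are the 50 peaks with another peak within 5 kb and circles the 179 single peaks. Scores over 100 are spread unevenly. None lies between the peaks at 2733757 and 8537921, or between those at 18222875 and 27045341. The highest score, 193.77, belongs to a single peak.

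Scores ranged from 7.03 to 193.77 on 3R, with a median of 19.48 (interval 16.30 to 21.63) and quartiles at 11.94 and 36.46. On X, 2L, 2R and 3L together the median was 17.78 (16.70 to 19.52) and the quartiles were 11.94 and 35.94. Of the 3R peaks, 53.3% were at or above the common median of the large arms, against 49.9% of the 819 peaks of the other large arms. That difference did not pass the threshold (odds ratio 1.14, interval 0.843 to 1.55, Fisher's exact test, two-sided, adjusted p = 0.477). The bulk of the scores thus overlapped from arm to arm.

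The share of 3R among the highest scores of the large arms depended on the cut. Of the 10 highest peaks of the large arms, 3 were on 3R, of the 20 highest 9, of the 50 highest 18 and of the 100 highest 26, while 3R holds 21.9% of all peaks of these arms. Scores over 100 were reached by 15 of 229 peaks on 3R (6.55%) and by 28 of 819 on the other large arms (3.42%), of which 2L had 11 of 209 (5.26%). On the small chromosome 4, which is not among the large arms, the share was higher, with 6 of 47 peaks (12.8%). These cuts were chosen after the values were seen and carry no test. At the upper quartile of the large arms, 25.3% of the peaks were at or above it on 3R and likewise 25.3% on the other arms (odds ratio 1.00).

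The 5 lowest peaks of 3R were narrow. They were 14749028 to 14749263 with a score of 7.03, 5744360 to 5744560 with 7.30, and 4496363 to 4496588, 8807849 to 8808105 and 912924 to 913181 with 7.58 each. Their widths are 201 to 258 bp. Among the 36 peaks with scores under 10, widths ran from 201 to 546 bp with a median of 244.5 bp, and 3 were wider than the median of the arm. These 36 are 15.7% of the 3R peaks, against 13.8% on the other large arms, and another 80 scored from 10 to under 20 (34.9% against 41.3%).

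Peaks on 3R had a median width of 384 bp (interval 358 to 409) and together covered 97096 bp, or 0.349% of the length between its outermost peaks, called its span here. On the other large arms the median was 401 bp (381 to 417). The share of peaks at or above the common median width was 46.7% on 3R and 50.9% elsewhere, a difference that did not pass the threshold (odds ratio 0.846, interval 0.623 to 1.15, Fisher's exact test, two-sided, adjusted p = 0.443). The narrowest width in the list, 201 bp, was found in 8 peaks of 3R, with scores from 7.30 to 15.93.

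Width rose with score across the arm, from a median of 244.5 bp for scores under 10 to 421 bp for scores from 20 to under 50 and 586 bp for scores over 100. Over the 229 peaks, Spearman's rho between both measures was 0.70, and between 0.67 and 0.73 on the other large arms. Both values come from the same peak calling, so rho is given as a description. None of the 65 peaks narrower than 300 bp scored over 23.83.

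The widest peaks of 3R did not all follow that order. The widest, at 18276887 to 18278206, spans 1320 bp and scored only 15.96, which is rank 133 of the arm. The next is 1085 bp wide, at 21867676 to 21868760, and scored 48.35. It is followed by one of 1002 bp at 7611909 to 7612910 that scored 62.36. The other two among the 5 widest are the peaks at 8889459 and 57948 named above, both with scores over 100. Of the 20 peaks of at least 700 bp, 10 scored over 50 and 2 scored under 20.

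**Figure D2:**
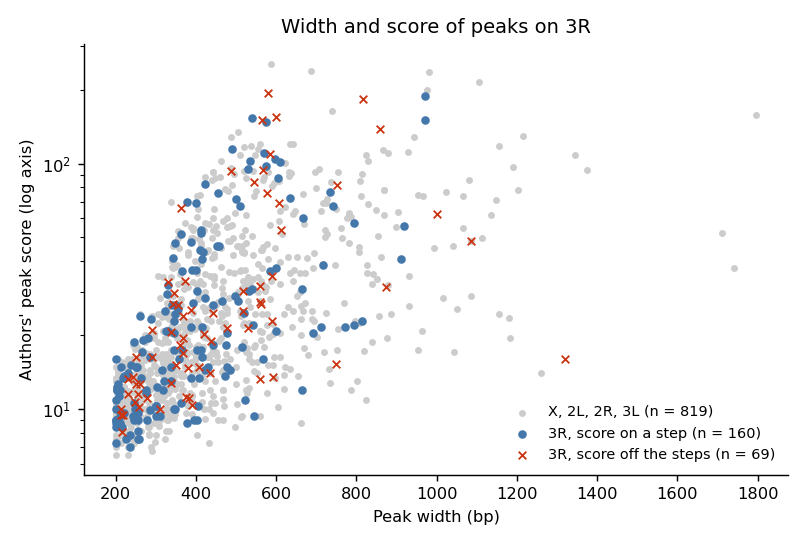
Each point is a peak, placed by its width in bp and its score on a log axis. Grey points are the 819 peaks of X, 2L, 2R and 3L. Blue circles are the 160 peaks of 3R whose score lies on a score step as described below, and red crosses the 69 whose score does not. The cross at 1320 bp with a score of 15.96 is the widest peak of 3R.

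Fewer peaks of 3R had a close neighbour than on the other large arms. On 3R, 50 of the 229 (21.8%, interval 16.7 to 27.8%) had another peak within 5 kb, counting the bases between them, against 279 of 819 (34.1%, 30.8 to 37.4%). The odds ratio was 0.541 (interval 0.375 to 0.771, Fisher's exact test, two-sided, adjusted p = 0.00343). This test was chosen with the counts of groups on each arm known, and it counts each member of a pair, so its p is too small. With each group counted as 1 place, 11.8% of 203 places on 3R and 17.2% of 652 on the other large arms held 2 or more peaks, and the call was lost (odds ratio 0.647, interval 0.385 to 1.05, Fisher's exact test, adjusted p = 0.235). The share was 31.4% on 3L, 33.0% on 2L, 35.3% on 2R and 36.9% on X, so 3R was the lowest of the 5. The 3R peaks fell into 179 single peaks, 22 pairs and 2 groups of 3, together 203 places. Among the 652 places of the other large arms were 24 groups of 3 or more, with 5 to 8 on each arm.

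The share on 3R was the lower one in all 10 alternatives run, but the call was not kept in all of them (Fisher's exact tests, adjusted p from 0.00064 to 0.390). It passed without a dense stretch of 27 peaks on 2L (odds ratio 0.599, Fisher's exact test, adjusted p = 0.0177), and it did not pass against 3L alone (0.611, adjusted p = 0.132), with a neighbour distance of 2 kb (0.645, adjusted p = 0.147), among peaks at or above the median score (0.449, adjusted p = 0.0512) or among peaks on the score steps described below (0.760, adjusted p = 0.390).

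The density of peaks showed no difference that passed the test. Arm 3R had 8.23 peaks per Mb of its span (7.20 to 9.37), and the other large arms had 9.11 (8.50 to 9.76), a ratio of 0.903 (0.777 to 1.05, exact binomial test, two-sided, adjusted p = 0.322). With each group counted once, the values were 7.30 places per Mb on 3R and 7.25 on the others, a ratio of 1.01. Arm X had 7.85 peaks per Mb, 3L 8.46, 2L 9.13 and 2R 11.1, and the part of density in the neighbour shares was not tested.

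**Figure D3:**
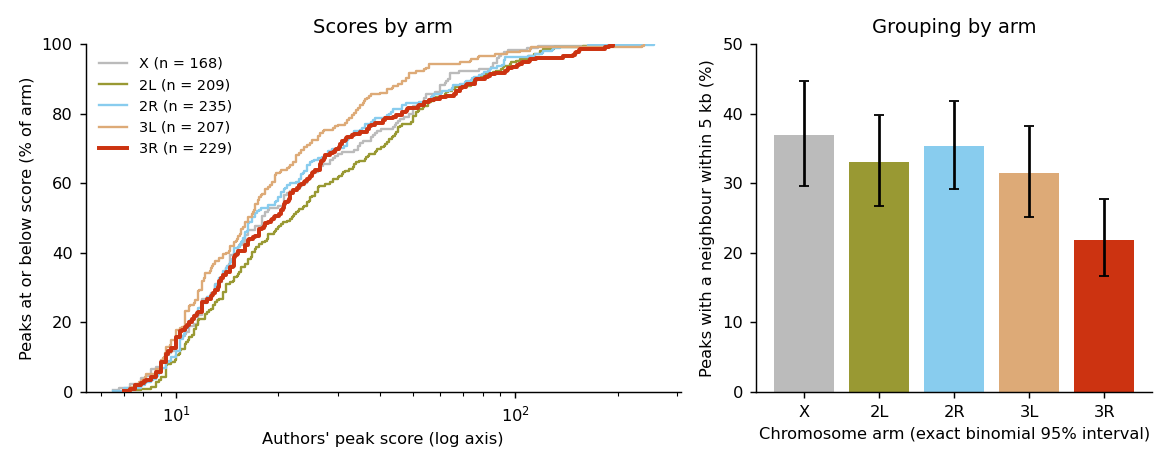
Left, the share of an arm's peaks at or below each score (vertical axis, %) against the score on a log axis, with 3R as the thick red line. Right, the share of peaks with a neighbour within 5 kb on each large arm, with exact binomial 95% intervals; 3R stands at 21.8% and the others between 31.4 and 36.9%.

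Among the 26 short distances of up to 5 kb on 3R, 9 were under 500 bp, 4 were from 500 bp to under 1 kb and 13 were longer, with a median of 933.5 bp. The closest pair lay 78 bp apart, at 14749028 to 14749263 and 14749342 to 14749762, scoring 7.03 and 20.14. The pair at 3788461 to 3788806 and 3788972 to 3789469 had scores of 22.94 and 28.93, with 165 bp between. At 21320818 to 21321145 and 21321314 to 21321614, 168 bp apart, the scores were 29.42 and 10.29. The pairs at 12047218 to 12047608 and 12047820 to 12048359 (36.97 and 30.88) and at 11067949 to 11068493 and 11068709 to 11069582 (83.89 and 31.42) were separated by 211 and 215 bp. In 3 of these 5 closest pairs the scores differed by over 10.

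Of the 22 pairs, 13 joined a peak with a score under 20 to one of at least 20, 4 had both scores under 20 and 5 had both at or above it. Scores under 20 make up 50.7% of all 3R peaks (116 of 229). The median of the lower score of a pair was 11.94, against 30.15 for the higher. A gap between these medians follows from sorting each pair by score, so they are a description only. Whether pairs join low to high scores more often than other peaks of the arm was not tested. In 7 pairs the scores differed by more than 50. The peak at 2733757, with 153.87, had a neighbour of 14.80 at a distance of 4291 bp. The first peak of the arm, at 57948, with 150.55, had one of 10.43 at 1704 bp. The peak at 17405655, with 149.82, had one of 12.99 at 2648 bp. In the pair from 27045341 to 27046856 the scores were 101.35 and 10.29, and in that from 19607049 to 19608856 they were 97.70 and 11.94.

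The groups of 3 differed from each other in height. The first, from 2644954 to 2648357, held peaks at 2644954 to 2645539 (score 36.46), 2645948 to 2646544 (104.29) and 2647827 to 2648357 (94.82) within 3404 bp. It was the only place on 3R where 2 peaks with scores over 90 lay within 5 kb of each other. The second, from 12061688 to 12068528, held peaks at 12061688 to 12062248 (27.28), 12067237 to 12067759 (10.94) and 12068202 to 12068528 (20.78).

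Neither score nor width set grouped peaks apart from single ones beyond the test's threshold. The grouped peaks' median score was 21.2 against 18.7, and 56.0% of them were at or above the 3R median against 48.6% (odds ratio 1.34, interval 0.684 to 2.67, Fisher's exact test, two-sided, adjusted p = 0.477). Their median width was 413 bp against 369 bp, and 62.0% against 46.9% were at or above the 3R median width (odds ratio 1.84, interval 0.929 to 3.72, Fisher's exact test, adjusted p = 0.234). Of the 15 peaks with scores over 100, 5 were in groups, beside 50 of all 229 peaks of 3R (21.8%), and the difference was not tested.

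**Figure D4:**
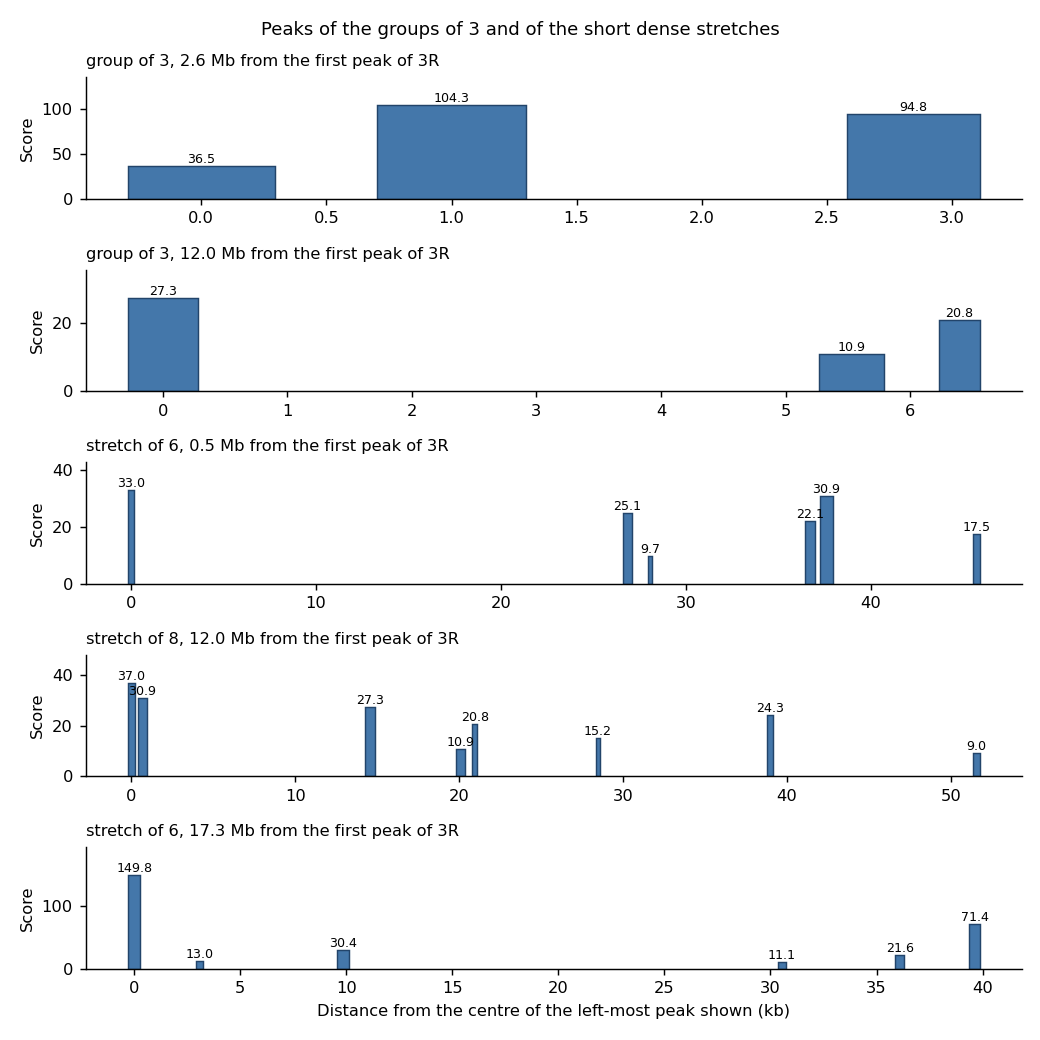
Each bar is a peak, drawn to scale in width along the distance in kb from the centre of the left-most peak shown, with its score as height and as number. The upper panels show both groups of 3, with highest scores of 104.29 and 27.28, and the lower panels the 3 stretches of up to 55 kb with the most peaks, which hold 6, 8 and 6 peaks.

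Peaks were denser on the centromere side of 3R, which is at the low end of the coordinates, than on the telomere side when the span was divided at its middle. The centromere side held 138 peaks, or 9.92 per Mb, and the telomere side 91, or 6.54 per Mb. This is a ratio of 1.52 (1.16 to 2.00, two-sided exact binomial test, adjusted p = 0.0103). It was tested with a higher density towards the centromere already known from these data, and peaks in groups enter it singly, so the p is no independent support. The test also assumes Poisson counts, while counts in 1 Mb bins of 3R had a variance 1.94 times their mean. Its p may therefore be too small and its interval too narrow. Without the densest window of the arm the densities were 9.16 and 6.54, and the ratio of 1.40 did not pass (exact binomial test, adjusted p = 0.0743; its other 3 alternatives gave 0.00806 to 0.0476). The same division of the other large arms gave ratios of 1.42 on 2R (1.09 to 1.86), 1.05 on X, 0.900 on 2L and 0.754 on 3L (0.566 to 1.00), and differences between arms were not tested.

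In 5 segments of equal length, from the centromere outwards, there were 65, 44, 48, 37 and 35 peaks, or 11.7, 7.91, 8.63, 6.65 and 6.29 per Mb. The median scores in the same order were 17.5, 18.2, 20.8, 23.8 and 14.8, and the intervals of neighbouring segments overlapped. At or above the 3R median were 48.6% of the peaks on the centromere side and 52.7% on the telomere side, which did not pass the threshold (odds ratio 0.846, interval 0.481 to 1.49, Fisher's exact test, adjusted p = 0.590). Scores over 50 made up between 16.9 and 21.6% of the peaks of each segment.

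**Figure D5:**
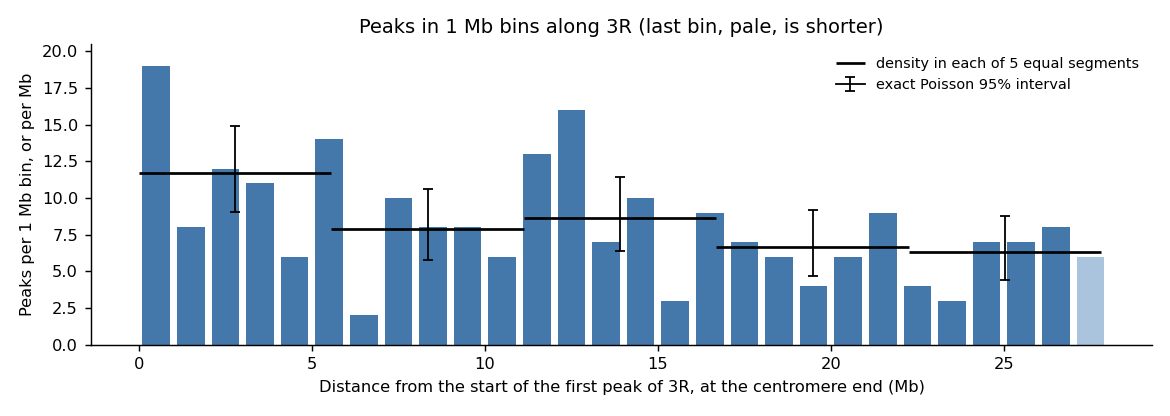
Bars give the number of peaks in each 1 Mb bin of 3R from the centromere end, with the last, shorter bin in pale colour. Black lines give the density in each of 5 equal segments of the arm with its exact Poisson 95% interval, from 11.7 per Mb in the first to 6.29 in the last.

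In the 27 full bins of 1 Mb, the count of peaks ran from 2 to 19 with a median of 8, and no bin was empty. The first bin, from 57948 to 1057947, held 19 peaks, and the thirteenth, from 12057948 to 13057947, held 16. The bin with 2 peaks lies from 6057948 to 7057947. The variance of the counts was 1.94 times their mean, against 1.57 on 3L, 1.67 on 2R, 4.00 on X and 6.59 on 2L, which includes its dense stretch.

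The densest 500 kb window, from 601103 to 1089986, was rich in modest peaks. Its 15 peaks had scores from 7.58 to 33.02 and a median of 16.29, while the rest of the arm had a median of 20.25. The highest were at 601103 to 601432 (33.02), 638548 to 639211 (30.88) and 627845 to 628361 (25.12). Of the 15, 6 had a neighbour within 5 kb, beside 50 of all 229 peaks of 3R (21.8%). The window was picked for its crowding, so its count is a description only.

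On a shorter scale, the most crowded stretch lay elsewhere. From 12047218 to 12099170, within 52.0 kb, there were 8 peaks with scores from 9.03 to 36.97, including 1 of the groups of 3 and 1 of the closest pairs. Stretches of 6 peaks each lay at 601103 to 647171, with scores from 9.66 to 33.02, and at 17405655 to 17445808, with scores from 11.10 to 149.82. The last combines 2 high peaks, at its first position and at 17445309 (71.43), with 4 of 11.10 to 30.39 between. These stretches were looked for after the values were seen.

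Long stretches without a called peak also occurred. The longest, 966.5 kb, lies between 23406427 and 24372963, and the peaks on its sides, at 23406210 to 23406427 and 24372963 to 24373340, are weak, with scores of 9.48 and 8.74. The second, 777.1 kb, lies between the peaks at 17445309 to 17445808 (71.43) and 18222875 to 18223460 (109.54). The third, 734.5 kb, separates the peaks at 1473898 to 1474306 (14.86) and 2208785 to 2209153 (19.48). The longest such stretch was 478.7 kb on 2R, 905.3 kb on 3L, 913.7 kb on X and 1313 kb on 2L. The last peak of 3R, at 27877682 to 27878474, scored 57.48. Since depth is unknown, a stretch without a peak says only that none was called.

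Scores on 3R repeated, with 161 different values among 229 peaks, and the value 9.03 was given to 7 peaks. Most scores of the list lay on steps: the values that −log10 of a Poisson upper tail takes at whole counts, when the Poisson mean is set to a single fitted value of 48.9. This mean was chosen as the one that put the most scores of the whole list, 3R included, on steps. It put 957 of the list's scores within 0.015 of a step, against 234 for the next best mean away from it, 100.8. Around the 3R scores that tolerance covers 7.21% of the score axis, with no allowance for the fit. Within it were 160 of the 229 scores of 3R (69.9%, interval 63.5 to 75.7%). On the other large arms the share was 75.2% (72.1 to 78.1%), and the difference did not pass the threshold (odds ratio 0.764, interval 0.547 to 1.07, Fisher's exact test, adjusted p = 0.238). On X the share was 92.3%, and with X left out it was 70.8% on the others.

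Read as steps, the scores correspond to counts. The lowest score of 3R, 7.03, lies on the step of a count of 90, which is 1.84 times the fitted mean. The median count over the 160 peaks was 123, or 2.51 times the mean. The peak at 8889459 lies on the step of 371, or 7.58 times the mean, the highest among the 160 peaks of 3R on a step. The peaks at 2733757, 57948 and 11798482 lie on steps of 331, 327 and 324. The highest peak of the arm, at 15686906, and those at 8537921, 1416963, 17405655 and 11925116 lie on no step, so no count can be read for them. The 69 peaks off the steps had a median score of 20.9 and a median width of 391 bp, against 18.3 and 371.5 bp for those on them. The file does not state how scores were made, so these counts describe the numbers in the list and are not the authors' values.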

How the data were processed

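The authors deposited 1 peak list for the series, with start, end and a score for each peak. Its source column names MACS and its positions refer to FlyBase release 5, per the file headers. BWA, MACS2, the build BDGP5 and CASAVA (1.7.0.2, 1.7.0.3) appear in the submitters' processing notes. Formaldehyde was used at 1.8% for 15 min, per the labels' protocols. Not given in the sources used here: the calling threshold, the treatment of reads with several matches, and the pooling of libraries. Each can change which regions are listed. The score is the authors' value, as deposited, on a scale that is not named.

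Peaks of 3R were compared with those of X, 2L, 2R and 3L. Chromosome 4, with 47 peaks, is small and was added only as an alternative setting. Arm length was the span between the outermost peaks. Shares were compared with Fisher's exact test after a split at the common median, rates with exact binomial tests, and medians carry order-statistic intervals. The Poisson mean was fitted to all scores on a grid of 0.0005. The threshold was an adjusted p of 0.05. The statistics were tested on simulated data. Named peaks are the 10 highest and 5 lowest scores, the 5 widest, the first and last, groups of 3 or more, the 5 closest pairs, the sides of the 3 longest gaps and the 3 highest of the densest window; others named were chosen after their values were seen. The members, tests and lists were chosen with earlier results of these data known, among them the density towards the centromere and the counts of groups. Gene names and sequences were not used, since the gene table at hand is of release 6. Python 3.11.15, numpy 2.4.6 and scipy 1.17.1 were used.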

Additional observations from a re-analysis of the deposited data

How the results depend on the processing

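Of 60 recomputed values of the 9 results with a test, 51 gave the same direction and the same call as in the text, values never called included. The density of 3R against the other large arms, not called in any setting, changed direction with 5 kb groups counted once (ratio 1.01). The lower share of 3R peaks with a neighbour lost its call against 3L alone (odds ratio 0.611), at 2 kb (0.645), among peaks at or above the median score (0.449) on the score steps (0.760) and with each group counted as 1 place (0.647). The share on the score steps gained a call with 5 kb groups counted once (0.589), and with X left out as well it had none (0.751, Fisher's exact test, adjusted p = 0.259, with 0.0103 to 0.801 over its 10 alternatives). The density on the centromere side lost its call without the densest window (1.40), and the score there, never called, changed direction when the outer 2 of 3 equal parts were compared (1.05). The cause was not tested. Settings with score steps, X left out together with groups, and places were chosen after seeing the data. Merging peaks under 100 bp apart left 228 peaks on 3R, with a median score of 19.5 and a median width of 385.5 bp. No paired analysis was possible because the list is common to all libraries, and no replicate could be left out. The unknown depth limits all values, and no peak can be called absent.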
